A study of Mus musculus with 6 samples.

Results

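The proteasome genes of mouse CD4 T cells are described here in cells given a retrovirus for Blimp-1 and in cells given the empty retrovirus. Members were chosen by name, as all genes whose symbol, ignoring case, was Psm followed by a letter from a to g and a digit. The rule found 48 genes, from 52 transcripts, among 21996 genes in the deposited table. Psmc3ip, whose symbol begins in the same way but which is no proteasome subunit, was left out. Blimp-1, encoded by Prdm1, is a transcriptional repressor known in lymphocytes for its part in terminal differentiation.

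The Blimp-1 group, 3 libraries, came from cells transduced with MigR1 carrying a Blimp-1 cDNA, and the empty vector group, 3 libraries, from cells transduced with MigR1 alone. In both groups the cells were naive CD4+ CD44lo CD62L+ CD25neg T cells, sorted out of spleen and lymph node from wild-type C57/BL6 mice whose age is not given in the sources used here. Both were cultured under neutral (Th0) conditions, with 10 ug/ml of antibodies against CD3 and CD28, and with IL-4 and IFN-gamma neutralised. Transduction followed 36 hours of stimulation, and cells carrying the GFP marker of the vector were sorted 2 days later. Another label gives the stimulation as 3 days. Blimp-1 was thus supplied by a viral vector, and its timing and level need not match those of the endogenous gene.

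The proteasome degrades proteins tagged with ubiquitin. Its 20S core is a barrel of outer alpha rings and inner beta rings, and the beta rings hold the catalytic subunits. A 19S cap recognises ubiquitin, unfolds the substrate with a ring of ATPases and feeds it into the core. In lymphocytes, and in other cells under interferon-gamma, the catalytic subunits Psmb5, Psmb6 and Psmb7 are partly replaced by Psmb8, Psmb9 and Psmb10, which gives the immunoproteasome, known for producing peptides for MHC class I.

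The vector checked its label. Prdm1 had 9.91, 12.8 and 9.45 FPKM in Blimp-1 replicates 1, 2 and 3, against 0.996, 2.03 and 1.38 FPKM in the empty vector replicates. FPKM is reads scaled to transcript length and library size, so it shows a share of the RNA pool. The vectors did not overlap, with a 7.30-fold ratio of means and a log2 fold change of 2.26 (SE 0.19) on log2(FPKM + 1), the scale of all fold changes here. The limma adjusted p was 0.0561, and 0.00655 with the replicate number as a block, and it ranged from 5.12e-11 to 0.434 over the alternatives tried.

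Estimated depth was 43.1, 46.6 and 34.1 M reads in Blimp-1 replicates 1, 2 and 3 and 18.2, 38.7 and 17.3 M reads in the empty vector replicates. Empty vector replicate 3 stood apart from the other 5 libraries, at 33.3 on a first principal component holding 52.1% of the variance, where the others lay between -22.7 and 12.4. Libraries with the same number resembled each other, so differences are also given within the numbered pairs. The sorted cells carried the defining markers of CD4 T cells, with Cd4 at 301, 310 and 304 FPKM in the Blimp-1 libraries and 279, 335 and 217 FPKM in the empty vector libraries. Cd8a was at most 0.169 FPKM in any library, while Cd8b1 reached 10.9 FPKM. Because the samples are bulk RNA, fewer cells expressing a gene and less RNA per cell cannot be told apart.

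Most proteasome genes averaged lower with Blimp-1 by a small amount, but no single gene passed the test. Of the 48 genes, 47 reached 1 FPKM in at least 3 libraries and were tested, and Psma8 did not. With limma and adjustment over all 10778 tested genes at 0.05, 0 members were called lower and 0 higher, and the same calls were 0.0% in each direction over all genes. The lowest adjusted p of a member was 0.997. At an unadjusted p under 0.05, 1 member was lower (Psmb5), where 0.445% of all genes were, and 0 were higher, where 0.659% of all genes were. With the replicate block, 0 members were called in either direction, against 0.00928% of all genes each way, and the lowest adjusted p was 0.151.

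The direction was shared by nearly the whole family. The log2 fold change was below 0 for 44 of 47 members, against 52.0% of all tested genes. It ranged from -0.50 for Psmb5 to 0.18 for Psme4, with a median of -0.21, where the median of all tested genes was -0.01. In the replicate pairs, the median of the members was -0.14, -0.09 and -0.36 in pairs 1, 2 and 3, while that of all tested genes was 0.01, 0.00 and -0.01. Members lower in the Blimp-1 library of the pair numbered 40, 36 and 44 of 47, against 48.9%, 50% and 51.2% of all tested genes. In all 3 pairs, 33 members were lower, a property of 22.8% of all tested genes, and 2 were higher (Psmc6 and Psme4), a property of 23.0%. The libraries were also rescaled to equal sums, scaled by their medians or quantile normalized. Then 27, 33 and 27 members were lower in all 3 pairs, against 15.9%, 22.2% and 20.4% of all genes. A log2 fold change below 0 was found for 42, 44 and 41 members, against 42.5%, 50.5% and 49% of all genes. At an unadjusted p under 0.05 in the fit with the replicate block, 22 members were lower, against 10.5% of all genes, and 1 was higher (Psme4), against 9.83%.

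**Figure D1:**
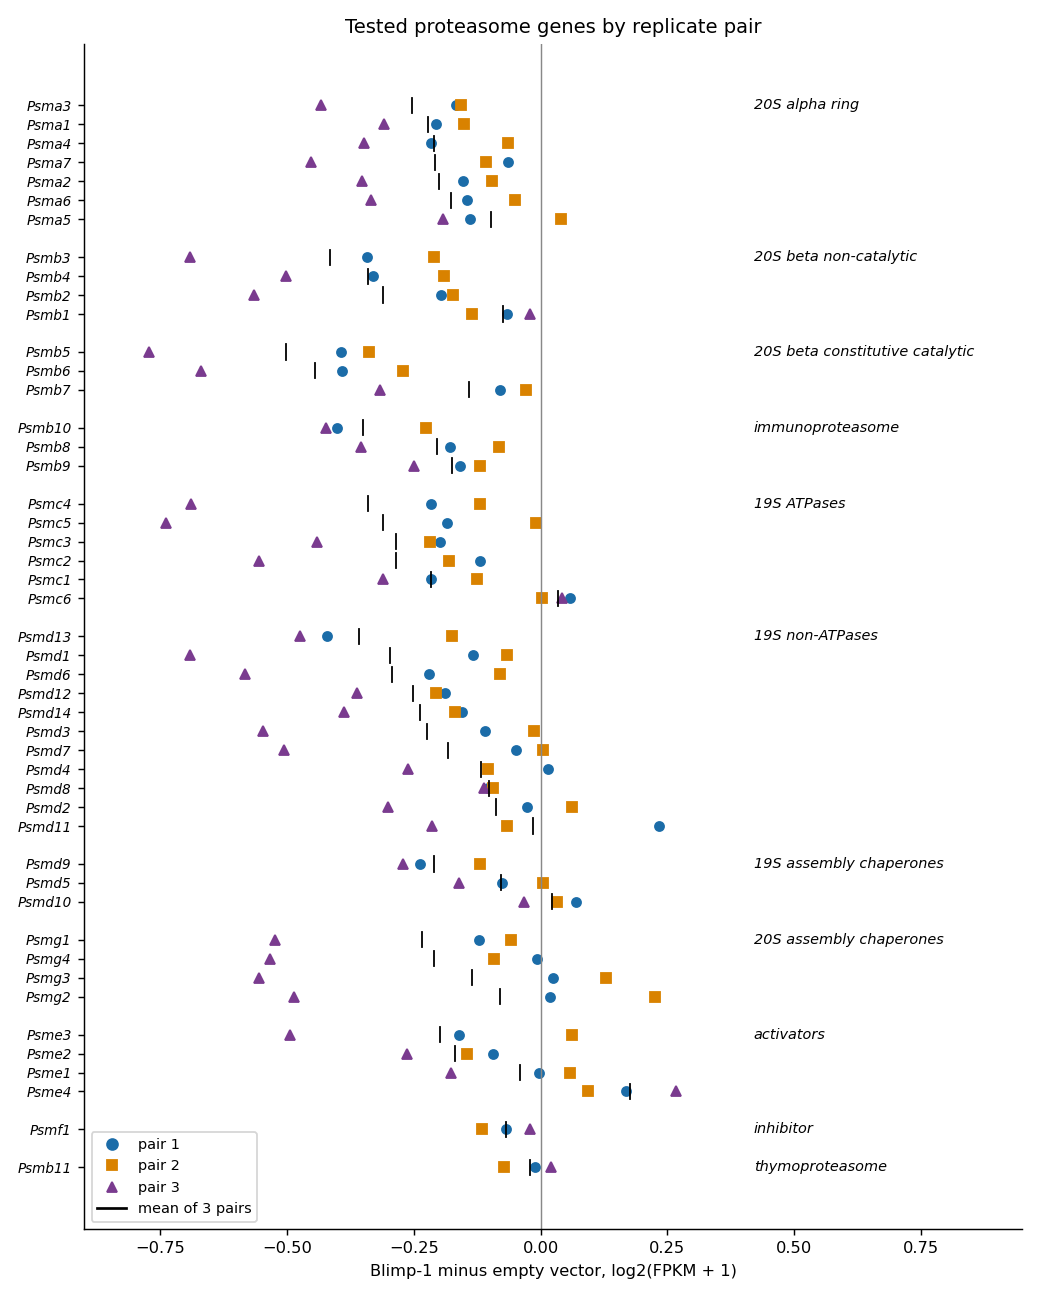
Blimp-1 minus empty vector difference in log2(FPKM + 1) for the 47 tested proteasome genes (rows, grouped by role), with 1 point per replicate pair and a bar at the mean of 3 pairs. Most points lie left of 0, with medians of -0.14, -0.09 and -0.36 in pairs 1, 2 and 3, and Psmc6 and Psme4 lie right of 0 in all 3 pairs.

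The size of the difference depended on 1 library. Empty vector replicate 3 had the highest level of the 6 libraries for 40 of 47 members, which was so for 29.1% of all tested genes. It was above both other empty vector libraries for 42 members, against 37.9% of all tested genes. Blimp-1 replicate 3 was above both other Blimp-1 libraries for 23 members, against 30.7% of all genes. The median member was 0.41 higher, on the log2 scale, in empty vector replicate 3 than in the mean of empty vector replicates 1 and 2, where the median of all tested genes was 0.00. Without this library the median log2 fold change of the members was -0.08. Blimp-1 replicate 3 was kept, here and wherever this library alone is left out. The group medians were then -0.18 for the constitutive catalytic subunits, -0.11 for the other beta subunits, -0.094 for the immunoproteasome and -0.061 for the alpha ring. They were -0.13 for the ATPases, -0.080 for the other 19S subunits, -0.012 for the 20S chaperones, -0.022 for the 19S chaperones, -0.040 for the activators, -0.020 for the thymoproteasome and -0.12 for the inhibitor, the 1 group whose value was farther below 0 than with all libraries. With both replicate 3 libraries left out, the median of the members was -0.10. Group medians were -0.33 for the constitutive catalytic subunits, -0.22 for the other beta subunits and -0.14 for the immunoproteasome. They were -0.12 for the alpha ring, -0.092 for the inhibitor and 0.013 for the 20S chaperones.

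Markers of other cells were low or uneven between libraries. The row holding the alpha-globin genes, markers of red cells, stood at 0.334, 0.131 and 1.50 FPKM in the Blimp-1 libraries and at 1.15, 1.11 and 9.83 FPKM in the empty vector libraries, highest in empty vector replicate 3. Alas2, the other erythroid marker measured, was at most 0.173 FPKM. Summed markers of NK cells ranged from 13.7 to 35.3 FPKM in the Blimp-1 libraries and from 3.34 to 28.4 FPKM in the empty vector libraries, and the defining marker Ncr1 was listed at 0 in all 6. Klrd1, which made up most of that sum, had 15.1, 30.4 and 12.8 FPKM in the Blimp-1 libraries and 12.7, 26.2 and 3.16 FPKM in the empty vector libraries, lowest in empty vector replicate 3. Summed B cell markers ranged from 1.48 to 5.84 FPKM in the Blimp-1 libraries and from 1.63 to 4.79 FPKM in the empty vector libraries. Summed myeloid markers ranged from 2.70 to 3.85 FPKM in the Blimp-1 libraries and from 2.57 to 3.07 FPKM in the empty vector libraries, with Csf1r listed at 0 in 5 libraries and at 0.00654 FPKM in the other. The part of these markers, and of depth, in the proteasome values was not tested.

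With both replicate 3 libraries left out, 34 members were lower in both remaining pairs, against 33.9% of all tested genes, and 5 were higher, against 35.0%. The levels of the vectors did not overlap and were lower with Blimp-1 for 22 members, against 11.0% of all genes, and 0 were higher without overlap, against 13.2%. That count of 22 was 12, against 7.36% of all genes, with FPKM rescaled to equal sums. It was 22, against 11.5%, with median scaling and 16, against 10.5%, with quantile normalization. Under these scalings 0 members were higher without overlap, against 16.5%, 12.6% and 13.7% of all genes. Over the remaining 4 libraries the fit with the replicate block called 6 members lower (Psmb3, Psmb4, Psmb5, Psmb6, Psmb10 and Psmd13), a call that 5.75% of all genes met, and 0 higher, against 4.71%. So few libraries hardly measure the spread of each gene, so these calls rest mostly on the variance moderated over all genes. Left out in the same way, pair 1 or pair 2 gave 0 calls among the members, against 0.0186% and 0.0278% of all genes lower. With all 6 libraries, 6 members lay lower without overlap (Psmb5, Psmb10, Psmc2, Psmd9, Psmd12 and Psmg4), against 2.35% of all genes, and 0 lay higher, against 2.32%.

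**Figure D2:**
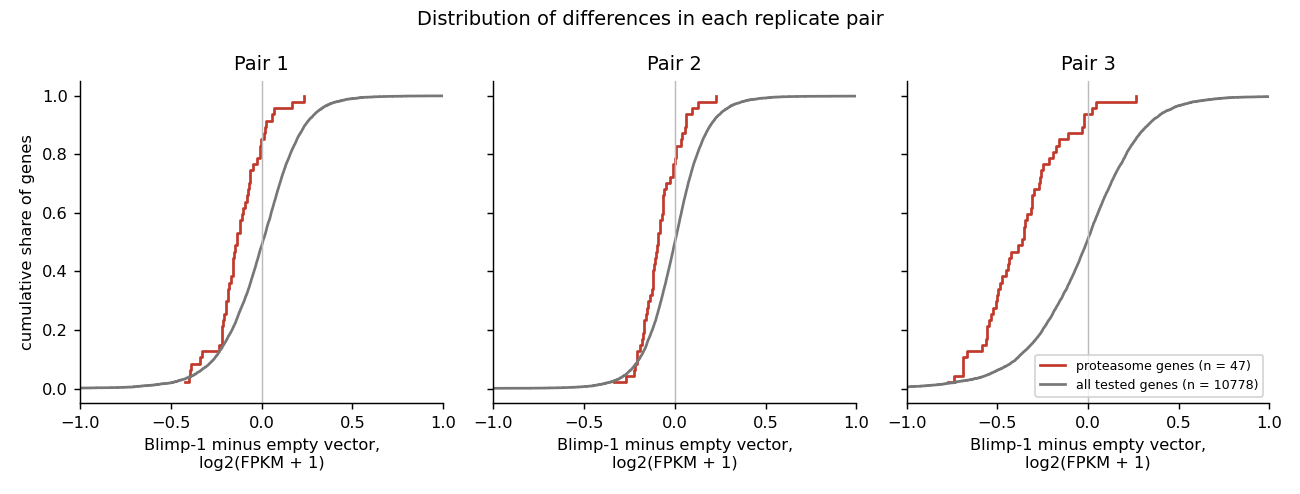
Cumulative share of genes (vertical axis) at or below each Blimp-1 minus empty vector difference in log2(FPKM + 1) (horizontal axis, drawn from -1 to 1), for the 47 tested proteasome genes and all 10778 tested genes, in each replicate pair. The proteasome curve lies left of the curve of all genes at its middle in each pair, farthest in pair 3, where the median member is at -0.36 and the median gene at -0.01.

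Together, the 48 genes took 0.573%, 0.598% and 0.601% of all FPKM in Blimp-1 replicates 1, 2 and 3 and 0.623%, 0.620% and 0.739% in the empty vector replicates. The share was lower in every Blimp-1 library than in any empty vector library. Summed FPKM was 2991 ± 173 with Blimp-1 and 3450 ± 540 with the empty vector (SD, n = 3 each). Unlike the shares, these sums overlapped, with Blimp-1 replicate 3 at 3185 and empty vector replicate 2 at 3051. The log2 ratio of the sums was -0.14, -0.10 and -0.35 in the 3 pairs, a mean of -0.20 (SD 0.14). The members were highly expressed, with a median at the 86.5th percentile of the tested genes by mean FPKM.

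The constitutive catalytic subunits had the lowest group median, -0.44, with pair medians of -0.39, -0.27 and -0.67. Psmb5, the chymotrypsin-like subunit, and Psmb6, the caspase-like subunit, were the members with the most negative log2 fold changes. In the RefSeq promoters of the GRCm38.p6 assembly, both hold the letters TGACNNNGC, the core of the antioxidant response element that NRF1 and NRF2 are known to bind, and for this the 250 bases before their starts are shown. Psmb3, lower in all pairs and without these letters, and Psmc6, with them and near 0, are shown beside the catalytic subunits because they do not share that arrangement. Psmc6 was higher by 0.06, 0.00 and 0.04 in the pairs. Its log2 fold change was -0.081 without Blimp-1 replicate 1 and -0.070 without empty vector replicate 2. The strand is that of the gene, and capitals mark TGACNNNGC and, in Psmb3, CCAAT and the core of the interferon-stimulated response element, which is GAAA, any 2 bases and GAAA again. Each was searched on both strands. Psmb5 lies at chr14:54617996-54618245 on the minus strand, Psmb6 at chr11:70525107-70525356, Psmb3 at chr11:97703184-97703433 and Psmc6 at chr14:45329574-45329823, these 3 on the plus strand.
Psmb5: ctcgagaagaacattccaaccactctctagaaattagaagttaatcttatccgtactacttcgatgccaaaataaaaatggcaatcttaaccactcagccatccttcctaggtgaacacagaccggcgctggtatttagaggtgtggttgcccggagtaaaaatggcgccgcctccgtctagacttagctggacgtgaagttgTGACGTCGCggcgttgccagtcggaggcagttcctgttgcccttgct
Psmb6: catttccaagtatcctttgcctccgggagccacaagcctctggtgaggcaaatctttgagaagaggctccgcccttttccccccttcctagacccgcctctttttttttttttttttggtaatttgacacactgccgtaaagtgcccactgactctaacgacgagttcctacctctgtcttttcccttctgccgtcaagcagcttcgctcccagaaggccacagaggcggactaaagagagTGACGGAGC
Psmb3: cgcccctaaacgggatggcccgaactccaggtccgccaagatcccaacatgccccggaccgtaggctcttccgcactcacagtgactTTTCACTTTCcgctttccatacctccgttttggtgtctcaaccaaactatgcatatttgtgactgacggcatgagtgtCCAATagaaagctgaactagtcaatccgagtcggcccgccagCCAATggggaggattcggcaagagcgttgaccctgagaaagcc
Psmc6: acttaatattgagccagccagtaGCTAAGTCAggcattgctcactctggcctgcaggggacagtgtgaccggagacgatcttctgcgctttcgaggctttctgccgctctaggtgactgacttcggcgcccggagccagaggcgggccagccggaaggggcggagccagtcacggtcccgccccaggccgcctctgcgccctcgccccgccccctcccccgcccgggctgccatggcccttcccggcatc

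The match in Psmb5 began 47 bases before the start and that in Psmb6 9 bases before it, both on the strand of the gene, while that in Psmc6 began 227 bases before the start on the opposite strand. In Psmb3, CCAAT stood 85 and 43 bases before the start and the interferon core 163 bases before it on the opposite strand. RefSeq held 43 promoters for 40 of the 48 genes, and 32851 in all. Psmb7, the remaining constitutive catalytic subunit, was among the 8 genes without a promoter and was not searched. TGACNNNGC was in 5 of the 43 (Psmb5, Psmb6, Psmc6, Psmd9 and Psmd12), or 11.6%, against 10.2% of all promoters. These 5 genes had log2 fold changes of -0.50, -0.44, 0.03, -0.21 and -0.25. CCAAT was in 14, or 32.6%, against 33.8%. The interferon core was in 3 (Psmb3, Psmd4 and Psmd9), or 6.98%, against 2.98%. AGNGAAAG, the core of the Blimp-1 site, was in 3 (Psma1, Psmc2 and Psmd10), or 6.98%, against 7.3%, and these genes had log2 fold changes of -0.22, -0.29 and 0.02. These letter matches are descriptions and say nothing of binding. The search covered only the 250 bases before each start.

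Psmb5 had 46.7, 45.0 and 51.1 FPKM in Blimp-1 replicates 1, 2 and 3, against 61.7, 57.2 and 88.0 FPKM in the empty vector replicates. Every Blimp-1 library was below every empty vector library. Means were 47.6 ± 3.13 and 69.0 ± 16.7 FPKM (SD, n = 3 each), 30.9% lower with Blimp-1. The log2 fold change was -0.50 (SE 0.18), with a limma adjusted p of 0.997. It was -0.31 without empty vector replicate 3 and -0.37 without both replicate 3 libraries. With the replicate block the adjusted p was 0.151, and the unadjusted 95% interval of the log2 fold change was -0.75 to -0.25. About 1009 to 1986 reads lay behind each value, so counting error was small beside the spread between replicates.

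Psmb6 had 42.4, 37.5 and 55.0 FPKM with Blimp-1, against 56.0, 45.5 and 88.1 FPKM with the empty vector. Each Blimp-1 library was below its pair, but Blimp-1 replicate 3 was above empty vector replicate 2. The log2 fold change was -0.44 (SE 0.26), with a limma adjusted p of 0.997, or 0.151 with the block. The unadjusted interval with the block was -0.68 to -0.21. Without empty vector replicate 3 the log2 fold change was -0.18, and without both replicate 3 libraries it was -0.33. Psmb7, the trypsin-like subunit, had 65.0, 62.1 and 79.3 FPKM with Blimp-1, against 68.8, 63.3 and 99.0 FPKM with the empty vector. Pairs 1 and 2 differed little, and the log2 fold change of -0.14 (SE 0.19) turned to 0.05 without empty vector replicate 3. With its pair, Blimp-1 replicate 3, also left out, the log2 fold change of Psmb7 was -0.055. Near-identical copies of Psmb5, Psmb6 and Psmb7 are annotated as pseudogenes, so reads of these genes may have been split.

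**Figure D3:**
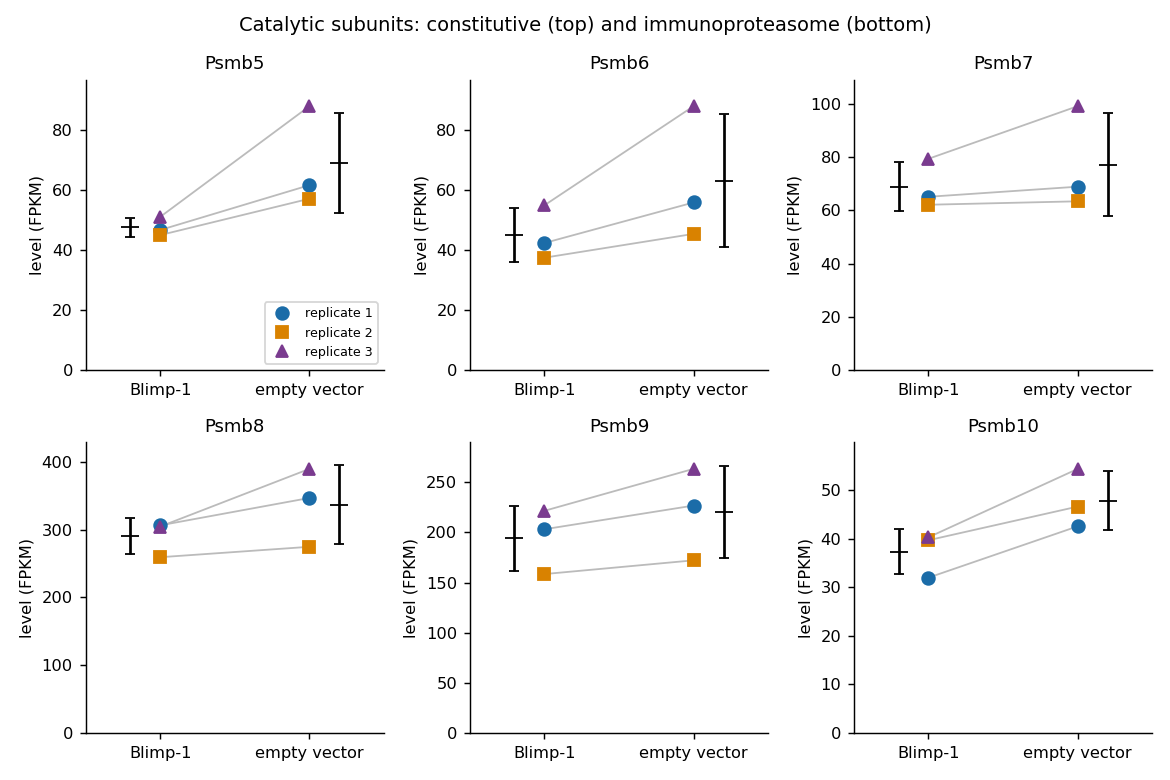
Level in FPKM (vertical axes from 0) of the constitutive catalytic subunits Psmb5, Psmb6 and Psmb7 (top) and the immunoproteasome subunits Psmb8, Psmb9 and Psmb10 (bottom), with Blimp-1 left and empty vector right, lines joining replicate pairs, and bars for mean ± SD of 3 libraries. Every line runs lower at the Blimp-1 end, and Psmb5 and Psmb10 do not overlap between the vectors.

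The immunoproteasome subunits were the more abundant catalytic forms, except for Psmb10. Psmb8, the chymotrypsin-like immuno form, had 307, 259 and 305 FPKM with Blimp-1, against 347, 275 and 390 FPKM with the empty vector. Each pair was lower, the vectors overlapped, and the log2 fold change was -0.21 (SE 0.16). It was -0.094 without empty vector replicate 3 and -0.13 without both replicate 3 libraries. Psmb9, the immuno counterpart of Psmb6, had 203, 158 and 221 FPKM with Blimp-1, against 227, 172 and 263 FPKM with the empty vector. Its log2 fold change was -0.18 (SE 0.20), and it too was lower in each pair with overlap between the vectors. It was -0.038 without empty vector replicate 3, -0.036 without Blimp-1 replicate 2 and -0.14 without both replicate 3 libraries.

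Psmb10, the immuno counterpart of Psmb7, had 32.0, 39.7 and 40.3 FPKM with Blimp-1, against 42.5, 46.6 and 54.3 FPKM with the empty vector. The vectors did not overlap. Means were 37.3 ± 4.63 and 47.8 ± 6.01 FPKM (SD, n = 3 each), 22.0% lower with Blimp-1, with a log2 fold change of -0.35 (SE 0.15). With the block in limma the adjusted p was 0.151 and the unadjusted interval -0.53 to -0.17. The median of the 3 immuno subunits was -0.21, with pair medians of -0.18, -0.12 and -0.35.

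A ratio of subunits within a library does not depend on the scaling between libraries. Psmb8 over Psmb5 was 6.56, 5.76 and 5.96 with Blimp-1, against 5.63, 4.81 and 4.43 with the empty vector. The 2 groups did not overlap, and the log2 ratio was higher with Blimp-1 by 0.30 (SD 0.11 over pairs). Psmb9 over Psmb6 was 4.79, 4.22 and 4.03 with Blimp-1, against 4.05, 3.78 and 2.99 with the empty vector, a mean log2 difference of 0.28 (SD 0.14). It was higher in each pair, with overlap between the groups. Psmb10 over Psmb7 went the other way, at 0.491, 0.639 and 0.508 with Blimp-1, against 0.618, 0.735 and 0.549 with the empty vector. Its mean log2 difference was -0.22 (SD 0.11), lower in each pair. Without empty vector replicate 3 the mean differences were 0.23 for Psmb8 over Psmb5, 0.15 for Psmb9 over Psmb6 and -0.31 for Psmb10 over Psmb7, and that of Psmb10 over Psmb7 was -0.10 without empty vector replicate 2. No test is given for these ratios.

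**Figure D4:**
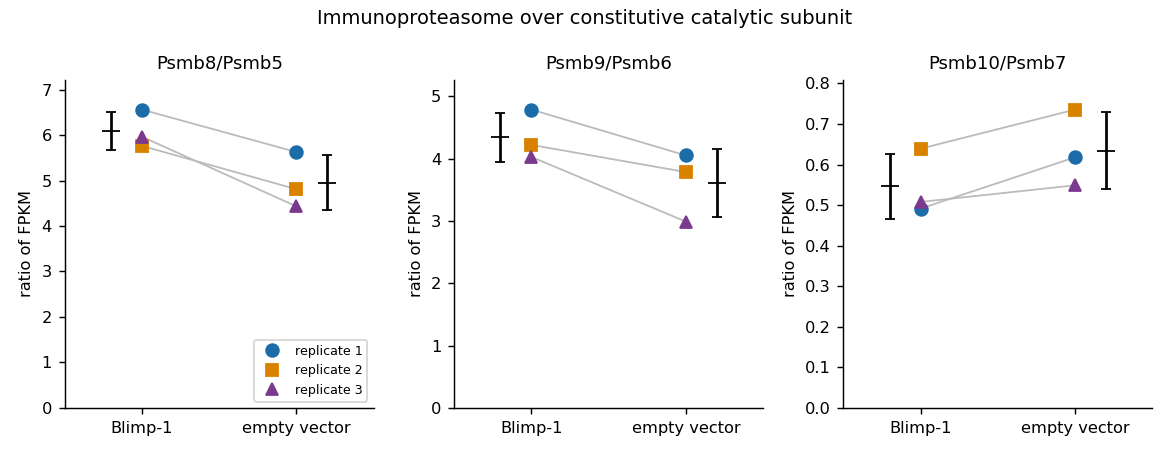
Ratio of FPKM of each immunoproteasome subunit to its constitutive counterpart (vertical axes from 0), with Blimp-1 left and empty vector right, lines joining replicate pairs, and bars for mean ± SD of 3 libraries. Psmb8/Psmb5 and Psmb9/Psmb6 are higher with Blimp-1 in all 3 pairs, and Psmb10/Psmb7 is lower in all 3.

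The non-catalytic beta subunits, structural parts of the inner rings, had a median of -0.33, with pair medians of -0.26, -0.18 and -0.53. All 4 were lower in all 3 pairs. Psmb3 had 58.8, 70.9 and 77.0 FPKM with Blimp-1, against 74.8, 82.2 and 125 FPKM with the empty vector. Its log2 fold change was -0.41 (SE 0.21), or -0.19 without empty vector replicate 3 and -0.28 without both replicate 3 libraries. Blimp-1 replicate 3 lay above empty vector replicate 1. Psmb1 differed least, with 188, 172 and 195 FPKM with Blimp-1, against 197, 189 and 198 FPKM with the empty vector, and a log2 fold change of -0.07 (SE 0.11). Its interval with the block, -0.22 to 0.07, included 0. Psmb2 and Psmb4 had log2 fold changes of -0.31 and -0.34, and Psmb4 averaged 106 ± 17.7 FPKM with Blimp-1 and 137 ± 37.7 FPKM with the empty vector (SD, n = 3 each).

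The alpha ring, which gates the core, had a median of -0.21, and 6 of its 7 genes were lower in all 3 pairs. Psma3 had the most negative value, with 51.7, 53.0 and 58.6 FPKM with Blimp-1, against 58.2, 59.3 and 79.4 FPKM with the empty vector. Its log2 fold change was -0.25 (SE 0.15), or -0.11 without empty vector replicate 3 and -0.16 without both replicate 3 libraries. Only Blimp-1 replicate 3 overlapped the empty vector libraries. Psma5 was nearest 0, with 52.5, 50.0 and 62.8 FPKM with Blimp-1, against 57.9, 48.6 and 71.9 FPKM with the empty vector. Pair 2 was higher with Blimp-1 and the log2 fold change of -0.10 (SE 0.17) became 0.05 without empty vector replicate 3. With Blimp-1 replicate 3 also left out, the log2 fold change of Psma5 was -0.050. The other alpha genes lay between -0.22 (Psma1) and -0.18 (Psma6). Psma8, the testis form, was between 0.0268 and 0.0732 FPKM in all 6 libraries, too low to test.

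Of the 6 ATPases of the 19S base, 5 were lower in all 3 pairs, and the median was -0.29. Psmc4 had 26.0, 33.3 and 29.2 FPKM with Blimp-1, against 30.3, 36.3 and 47.6 FPKM with the empty vector. The log2 fold change was -0.34 (SE 0.19), with pair differences of -0.22, -0.12 and -0.69. It was -0.17 without empty vector replicate 3, and also -0.17 without both replicate 3 libraries. Psmc2 had 22.9, 24.6 and 23.3 FPKM with Blimp-1, against 24.9, 28.0 and 34.7 FPKM with the empty vector. Its vectors did not overlap, by a margin of 24.6 to 24.9 FPKM, and its log2 fold change was -0.29 (SE 0.15). That was -0.16 without empty vector replicate 3 and -0.15 without both replicate 3 libraries. Psmc6 was the exception, with 92.1, 66.2 and 79.0 FPKM with Blimp-1, against 88.4, 66.1 and 76.6 FPKM with the empty vector. Its pairs matched closely, at 0.06, 0.00 and 0.04, although its level ranged from 66.1 to 92.1 FPKM over the libraries.

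The other subunits of the 19S cap form its ubiquitin receptors, scaffolds and lid. Among 11 of these genes the median was -0.22, and 7 were lower in all 3 pairs. Psmd13, a lid subunit, had 27.5, 31.1 and 37.0 FPKM with Blimp-1, against 37.2, 35.2 and 51.8 FPKM with the empty vector. The log2 fold change was -0.36 (SE 0.19), each pair was lower and the vectors overlapped. Without empty vector replicate 3 it was -0.19, and without both replicate 3 libraries it was -0.30. Psmd12, also of the lid, had 28.4, 26.5 and 27.4 FPKM with Blimp-1, against 32.4, 30.7 and 35.6 FPKM with the empty vector. It did not overlap, varied little within either vector, and had a log2 fold change of -0.25 (SE 0.12). Its limma adjusted p was 0.997, and 0.166 with the block, where the unadjusted 95% interval was -0.42 to -0.08.

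Psmd11, another lid gene, had 31.4, 27.9 and 26.9 FPKM with Blimp-1, against 26.6, 29.3 and 31.3 FPKM with the empty vector. The pairs disagreed, at 0.23, -0.07 and -0.21, and the log2 fold change was -0.02 (SE 0.13), turning to 0.02 with FPKM rescaled to equal sums and to 0.01 with quantile normalization. The scaffold genes Psmd1 and Psmd2 had log2 fold changes of -0.30 and -0.09. The ubiquitin receptor gene Psmd4 had -0.12, and the lid deubiquitinase gene Psmd14 had -0.24, with 30.5, 32.1 and 37.6 FPKM with Blimp-1, against 34.1, 36.3 and 49.6 FPKM with the empty vector. Psmd3, Psmd6, Psmd7 and Psmd8 lay between -0.29 (Psmd6) and -0.10 (Psmd8).

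Assembly chaperones gave mixed values. Psmd9, a chaperone of the 19S base, had 4.12, 4.67 and 4.82 FPKM with Blimp-1, against 5.04, 5.16 and 6.03 FPKM with the empty vector. Its vectors did not overlap and its log2 fold change was -0.21 (SE 0.13). Psmd10, known as gankyrin and acting at the same step, had 14.7, 16.5 and 15.5 FPKM with Blimp-1, against 14.0, 16.1 and 15.9 FPKM with the empty vector. These overlapped, with a log2 fold change of 0.02 (SE 0.12), and Psmd5, the last of the 3, was at -0.08.

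Psmg1 to Psmg4 encode chaperones that build the alpha ring of the 20S core. Psmg1 had 26.8, 24.4 and 26.4 FPKM with Blimp-1, against 29.2, 25.5 and 38.4 FPKM with the empty vector. Its log2 fold change was -0.23 (SE 0.17), or -0.075 without empty vector replicate 3 and -0.090 without both replicate 3 libraries. Psmg2 had 13.4, 16.3 and 15.7 FPKM with Blimp-1, against 13.2, 13.8 and 22.4 FPKM with the empty vector, a log2 fold change of -0.08 (SE 0.21). Pairs 1 and 2 of Psmg2 were higher with Blimp-1 and pair 3 was lower at -0.49. Without empty vector replicate 3 the log2 fold change was 0.15, and without both replicate 3 libraries it was 0.12. Psmg3, at -0.13, had the same pattern over pairs. Psmg4 had 34.6, 34.4 and 31.4 FPKM with Blimp-1, against 34.7, 36.8 and 45.9 FPKM with the empty vector, and did not overlap, by a margin of 34.6 to 34.7 FPKM. Its log2 fold change was -0.21 (SE 0.14), or -0.094 without empty vector replicate 3 and -0.050 without both replicate 3 libraries. It was -0.45 when only the transcript with the highest mean was used, since the table holds 2 transcripts for Psmg4. Of all groups, these 4 genes rested most on pair 3, with pair medians of 0.01, 0.04 and -0.53.

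The activators open the core without ubiquitin. Psme1 and Psme2, the interferon-inducible pair that forms the 11S cap, were close in level, with a Psme2 to Psme1 ratio of 0.975 ± 0.107 with Blimp-1 and 1.06 ± 0.104 with the empty vector (SD, n = 3 each). Psme1 had 215, 222 and 202 FPKM with Blimp-1, against 215, 214 and 228 FPKM with the empty vector, a log2 fold change of -0.04 (SE 0.11). Psme2 had 193.5, 206 and 222 FPKM with Blimp-1, against 207, 228 and 267 FPKM with the empty vector. Its log2 fold change was -0.17 (SE 0.14), or -0.070 without empty vector replicate 3 and -0.12 without both replicate 3 libraries. Psme2 was lower in each pair and Psme1 was not, and the vectors overlapped for both. A near-identical copy, Psme2b, is annotated, so the Psme2 level is uncertain.

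Psme3, the nuclear activator of the same family, had 19.04, 28.7 and 18.9 FPKM with Blimp-1, against 21.4, 27.5 and 27.0 FPKM with the empty vector. Its log2 fold change was -0.20 (SE 0.20), with pair 2 higher. Psme4, which encodes the large activator PA200, had 12.3, 15.8 and 12.0 FPKM with Blimp-1, against 10.8, 14.8 and 9.79 FPKM with the empty vector. It had the highest log2 fold change of the family, 0.18 (SE 0.19), was higher in all 3 pairs and overlapped between the vectors. The log2 fold change was 0.063 without empty vector replicate 3 and 0.13 without both replicate 3 libraries. With the block its limma adjusted p was 0.236 and its unadjusted interval 0.01 to 0.35.

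Psmf1, an inhibitor of the core in vitro, had 9.13, 9.63 and 8.73 FPKM with Blimp-1, against 9.62, 10.5 and 8.88 FPKM with the empty vector. It was lower in each pair by 0.02 to 0.12 on the log2 scale, a log2 fold change of -0.07 (SE 0.12). Psmb11, the thymoproteasome subunit of cortical thymic epithelium, had 1.20, 1.12 and 1.26 FPKM with Blimp-1, against 1.22, 1.23 and 1.23 FPKM with the empty vector. This gave a log2 fold change of -0.02 (SE 0.12).

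The members that were low in one pair tended to be low in another. Over the 47 tested members, the log2 differences of pairs 1 and 2 correlated at 0.681, those of pairs 1 and 3 at 0.583 and those of pairs 2 and 3 at 0.318 (Pearson). Over all tested genes the same correlations were 0.545, 0.389 and 0.147. Genes of a library share its preparation and depth and are not independent replicates, so these are descriptions.

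Other genes of the pathway did not share one direction. In 5 lists of related genes, 0 were called higher or lower by limma, with or without the replicate block, where 0.0% of all genes were called without it and 0.00928% in each direction with it. The lists had medians between -0.05 and 0.04. Among 7 tested genes for other proteasome parts and assembly factors the median was -0.05. In all 3 pairs 2 were lower and 2 higher, against 22.8% and 23.0% of all tested genes. Sem1, a small lid subunit outside the naming rule, had 227, 190 and 230 FPKM with Blimp-1, against 247, 215 and 336 FPKM with the empty vector. Its log2 fold change was -0.28 (SE 0.19), or -0.10 without empty vector replicate 3 and -0.15 without both replicate 3 libraries. Pomp, the maturation factor of the core, was at -0.25 and also lower in all 3 pairs, and both were highest in empty vector replicate 3. Adrm1 was at -0.21, with pair differences of 0.03, -0.05 and -0.61. Uchl5 and Usp14 were both at -0.05, and Txnl1 was at 0.04. Ecpas, an adaptor that binds the proteasome, had 32.7, 27.3 and 23.6 FPKM with Blimp-1, against 26.6, 25.2 and 21.2 FPKM with the empty vector, a log2 fold change of 0.18 (SE 0.16).

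Among 8 genes known for the transcription of proteasome genes, the median was 0.00. In all pairs 0 were lower and 2 higher, against 22.8% and 23.0% of all tested genes. Nfe2l1, which encodes the factor NRF1, had 22.5, 16.7 and 17.7 FPKM with Blimp-1, against 20.3, 15.5 and 16.2 FPKM with the empty vector. It was higher in each pair, with overlap between the vectors and a log2 fold change of 0.12 (SE 0.16). Maff, a small partner factor, was lowest of the list at -0.12. Over 11 genes of ubiquitin and its shuttles the median was 0.01, from -0.07 for Ubb, a polyubiquitin gene whose value was 0.026 with quantile normalization, to 0.25 for Uba6, an activating enzyme, or 0.082 without empty vector replicate 3. Of these, 1 was lower and 2 were higher in all pairs, against the same 22.8% and 23.0% of all tested genes.

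The genes that load peptides on MHC class I, the products of which use what the immunoproteasome makes, had a median of 0.04 over 11 tested rows, 1 of which held H2-K1 and H2-D1 together. Tap1, the neighbour of Psmb9 in the MHC region and a subunit of the peptide transporter, had 157, 123 and 154 FPKM with Blimp-1, against 150, 124 and 142 FPKM with the empty vector. The vectors overlapped and pair 2 was lower, while Psmb9 was lower in each pair. Tapbpl, a peptide editor, had the highest value of the list, with 31.5, 26.5 and 25.5 FPKM with Blimp-1, against 24.9, 25.5 and 19.5 FPKM with the empty vector. Its lowest Blimp-1 value and highest empty vector value both round to 25.5 FPKM, and the log2 fold change was 0.25 (SE 0.15). Calr, an endoplasmic reticulum chaperone, was lowest at -0.07. Among 8 factors of interferon signalling the median was 0.02, from -0.20 for the receptor gene Ifngr2 to 0.30 for Irf2. Irf2 was at 0.042 without empty vector replicate 3 and at 0.16 without both replicate 3 libraries. Irf1, known to drive immunoproteasome genes, had 42.6, 49.2 and 44.5 FPKM with Blimp-1, against 46.5, 49.2 and 45.2 FPKM with the empty vector.

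**Figure D5:**
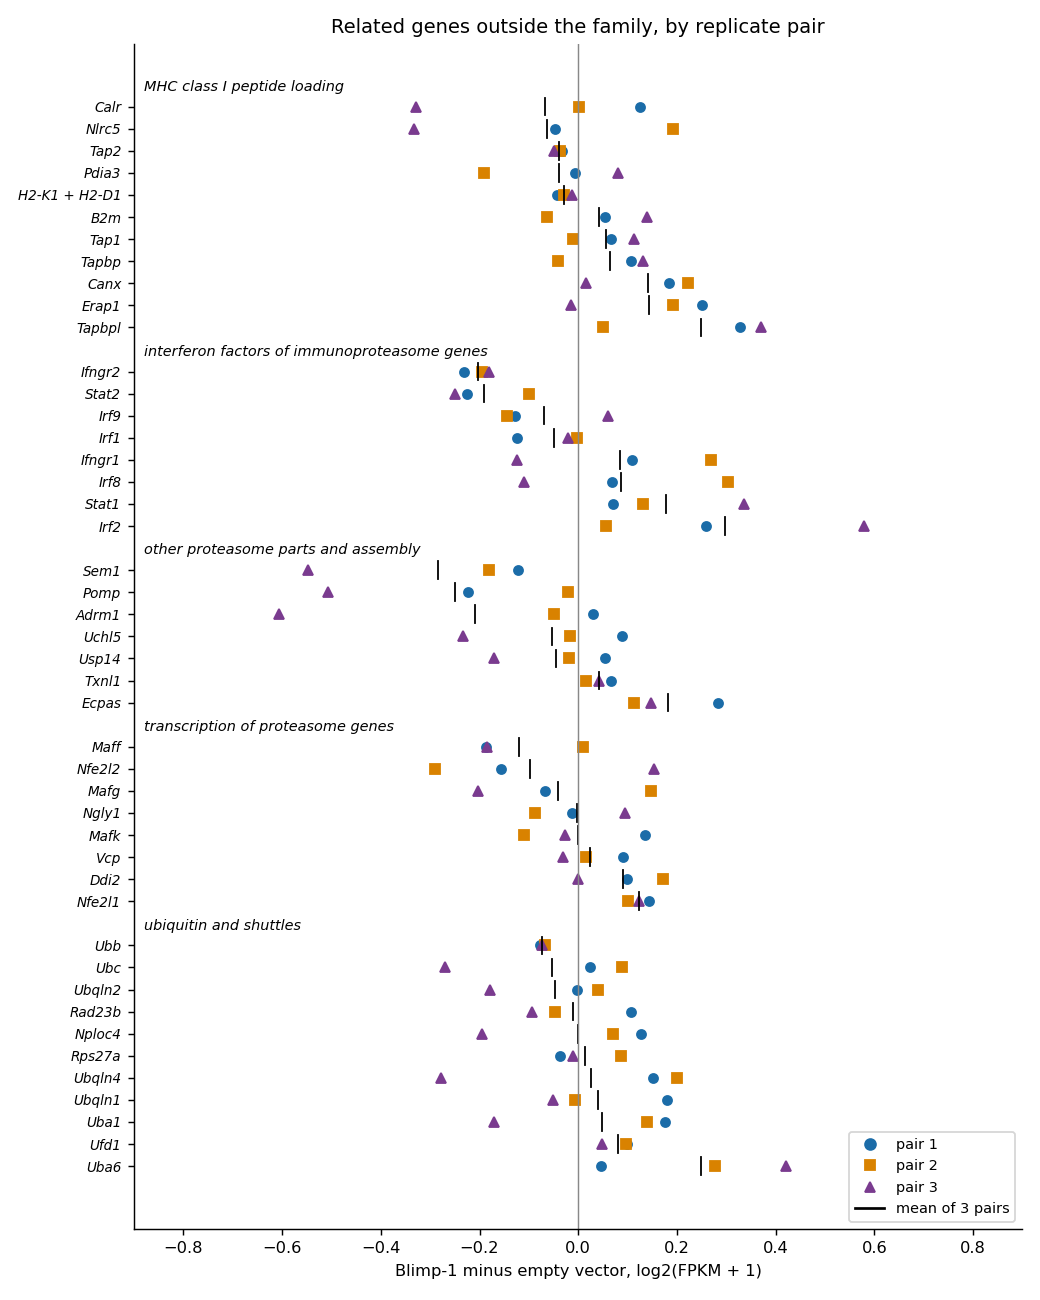
Blimp-1 minus empty vector difference in log2(FPKM + 1) for tested genes of the 5 related lists (rows, grouped by list), with 1 point per replicate pair and a bar at the mean of 3 pairs. The lists spread to both sides of 0, with list medians between -0.05 and 0.04, and Sem1 and Pomp are lower in all 3 pairs.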

How the data were processed

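The samples are 6 RNA-seq libraries from sorted, transduced CD4 T cells, 3 per vector, which the labels call independent biological replicates, made with 50-cycle single reads. The authors deposited FPKM per RefSeq transcript. Their processing notes list Cufflinks 2.2, CASAVA 1.8.2, Partek 6.6 and mm9 without saying what each did. No aligner, annotation, filter or strand setting is named in the sources used here.

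FPKM of 29868 transcripts was summed per symbol to 21996 genes. Of these transcripts, 1138 had no symbol and 546 of them were named by accession from RefSeq (GRCm38.p6). The table's symbols merge several RefSeq genes in 509 rows, and the 52 member transcripts, which carry the same name in RefSeq, are in none of them. Genes with 1 FPKM or more in at least 3 of 6 libraries (10778) were fitted on log2(FPKM + 1) in R 4.3.3 by limma 3.58.1. Its model held only the vector, with variance moderated along the mean, and p-values were adjusted over all tested genes by Benjamini-Hochberg at 0.05. The pseudocount of 1 understates changes of low genes. Scripts were tested on simulated data. Depth was estimated from the value of 1 read among low genes.

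Replicates are numbered 1 to 3 in both vectors, with no word on what the number stands for. Same-numbered libraries deviated together from their vector's mean (r of 0.76, 0.80 and 0.66), so the numbers were taken to pair the libraries. Libraries with unlike numbers had r of -0.22 or below. Deviations from a vector's own mean cancel out within it, which pushes those values below 0, so they add no separate evidence. A fit with the number as a block stands beside the main one. With 3 against 3, an exact test of 1 value cannot go below 0.1 (two-sided), so sums and ratios have no test.

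The members and lists were chosen with earlier results of these data known. Described in full are the catalytic, activator and inhibitor genes, members without overlap between the vectors, and the highest and lowest of each group or list. Psmd14, Pomp, Adrm1, Uchl5, Usp14, Txnl1, Tap1, Irf1, Psmb11 and members given by log2 fold change alone were named besides, after their values were seen. Some genes of the related lists are not reported here. Promoters are 250 bases before RefSeq starts. Alternatives were the block, scaling, pseudocount, filter, variance model, naming, the highest transcript in place of the sum, and leaving out libraries.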

Additional observations from a re-analysis of the deposited data

How the results depend on the processing

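No alternative called a member higher, and members called lower numbered 0 except over the 4 libraries of pairs 1 and 2 with the replicate block, where they numbered 6. The median of the members stayed below 0 in every alternative run, from -0.28 to -0.082 (the value without empty vector replicate 3), and the log2 ratio of the sums from -0.28 to -0.072. With single libraries or single pairs left out, group medians ranged from -0.62 to -0.18 for the constitutive catalytic genes, -0.45 to -0.11 for the non-catalytic beta genes, -0.28 to -0.061 for the alpha ring, -0.35 to -0.094 for the immunoproteasome, -0.39 to -0.13 for the ATPases, -0.30 to -0.080 for the other 19S subunits, -0.15 to -0.011 for the activators, -0.12 to -0.022 for the 19S chaperones and -0.12 to -0.012 for the inhibitor. Those of the 20S chaperones (-0.27 to 0.013) and the thymoproteasome (-0.044 to 0.0049) turned in sign. The log2 ratios ranged from 0.23 to 0.40 for Psmb8/Psmb5, 0.15 to 0.37 for Psmb9/Psmb6 and -0.33 to -0.10 for Psmb10/Psmb7. Leaving out single libraries, without their pairs, turned the sign of Psma5 (-0.23 to 0.047), Psmb7 (-0.27 to 0.050), Psmc6 (-0.081 to 0.15), Psmd10 (-0.038 to 0.061), Psmd11 (-0.080 to 0.038), Psmg2 (-0.21 to 0.15), Calr (-0.12 to 0.00040) and Nfe2l1 (-0.0011 to 0.24). Quantile normalization turned Psmb1 (0.0018), Psmd11 (0.0061), Psme1 (0.0049), Ubb (0.026) and Calr (0.012), and rescaling to equal sums turned Psmd11 (0.023) and moved the median of all genes to 0.03. The cause was not tested.

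With the replicate block, Prdm1 passed the threshold at the same log2 fold change of 2.26, and also without pair 1 (2.16), pair 2 (2.29) or pair 3 (2.32). With no block it passed with median scaling (2.26) and without empty vector replicate 2 (2.42). Single libraries left out gave 2.11 to 2.42. With all 6 libraries the block changed no other call of a named gene. In the paired fit without pair 1, Psmd10 was at -0.00039, without pair 2, Psmd11 was at 0.0093, and without pair 3, Psmd11 (0.083), Psme1 (0.027), Psmg2 (0.12) and Calr (0.063) turned in sign. Without both replicate 3 libraries, an alternative chosen after seeing the data, 22 members lay lower without overlap, or 12, 22 and 16 with FPKM also rescaled to equal sums, median scaled or quantile normalized. The block combined with other scalings or names was also added then and called 0 members. Sums and ratios were not recomputed under another pseudocount, filter, variance setting, median scaling or quantile normalization. About 90 to 222 reads per library lay behind Psmb11, the lowest tested member, and empty vector replicates 1 and 3 were the shallowest.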
